A study of Mus musculus with 30 samples.

Results

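The genes Klrd1, Klrc1, Klrk1, Klrb1b, Klrg1 and Ncr1 encode receptors best known from natural killer (NK) cells that CD8+ T cells can also carry. They were chosen by name: an array row was taken if its single gene symbol was one of these, which gave 6 rows for 6 genes out of 19938 genes measured. Their levels were followed over 30 arrays of mouse CD8+ T cells, in 10 groups of 3 arrays. Per the labels, all cells came from spleens of adult C57BL/6 mice aged 6 to 12 weeks and labelled female, and all carried the Pmel-1 transgene, so that the cells share 1 T cell receptor, directed at a melanocyte antigen. TN denotes naive cells (Ly5.1), and TMem denotes cells differentiated to a memory state in culture (Ly5.2), which limits them as a model of memory formed in an animal. Each type was sorted by flow cytometry and measured without stimulation (0 h), 18 h or 96 h into stimulation by itself ("alone"), and 18 h or 96 h into stimulation in a culture shared with the other type ("mix"). Stimulation was by antibodies against CD3 and CD28 together with IL-2. The title of the series gives the question of the mixed cultures, which is whether memory cells hasten effector differentiation of naive cells.

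Most of these receptors belong to the C-type lectin-like family encoded in the NK gene complex of chromosome 6. Klrd1 (CD94) pairs with the products of the Klrc genes; with Klrc1 (NKG2A) it forms an inhibitory receptor for the class Ib molecule Qa-1. Klrk1 (NKG2D) is an activating receptor for stress-induced ligands of the Raet1 and H60 families and signals through the adaptors Hcst (DAP10) and Tyrobp (DAP12). Klrb1b (NKR-P1B) is inhibitory and binds the Clec2d product, Klrg1 is inhibitory, binds cadherins and marks strongly differentiated effector cells, and Ncr1 (NKp46) is an activating immunoglobulin-like receptor that signals through Fcer1g and Cd247. In the RefSeq gene order, Klrd1 lies between Klre1 and Klrk1, Klrk1 between Klrd1 and Klrc3, Klrc1 between Klrc2 and Klri1, and Klrb1b next to Klrb1c. Klrg1 lies on the same chromosome between Mug2 and M6pr, and Ncr1 lies on chromosome 7 between Lilra5 and Gp6.

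Values are log2 probe set values and differences are log2 differences between group means, each with the standard error (SE) of the fit and n = 3 arrays per group. A gene was called changed at an adjusted p under 0.05 in limma over all 19938 genes; 3 arrays against 3 could not give less than p = 0.1 in an exact permutation test. Levels are called near background where the mean of a group lay under the lower quartile of its own arrays (5.63 to 5.74 over the groups), and a difference measured from there may understate the change. The samples of a group are described by the submitters as biological repeats. The CD8 T cell markers fitted the label: all 10 measured, Cd8a and Cd3e among them, were above the near-background level in each of the 10 groups. Transcripts of the sex chromosomes did not follow the label female. All 15 TMem arrays had Y-linked Eif2s3y at 8.82 to 9.51 and Xist at 4.99 to 6.02. The 6 arrays of TN alone at 0 h and 96 h had Eif2s3y at 4.58 or less and Xist at 9.34 to 12.1, whereas the other 9 TN arrays had both, Eif2s3y at 7.34 to 8.50 and Xist at 10.9 to 11.8. The source of the cells and the condition therefore cannot be told apart wherever these sets are compared. This includes TMem against TN, TN mix against TN alone at 96 h, and TN alone at 18 h against 0 h or 96 h. It does not include TN mix against TN alone at 18 h. Array 3 of TMem alone at 0 h stood apart in the receptor genes, and results that rest on it are given with and without it. The SE of a gene is shared by all 10 groups. The spread of TMem alone at 0 h (SD 0.80 for Klrd1, 1.41 for Klrc1, 1.19 for Klrk1) therefore widens their intervals in every comparison. A bulk level cannot tell fewer cells that carry a transcript from less transcript per cell.

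Klrc1 and Klrk1 separated memory from naive cells in all 5 comparisons of TMem with TN. Klrc1 read 9.92, 9.42 and 7.27 on the 3 arrays of TMem alone at 0 h and 6.17, 5.57 and 5.77 on those of TN alone at 0 h. Every TMem array was higher than every TN array, and array 3 of TMem lay more than 2 log2 units below its 2 companions. The difference was 3.03 (SE 0.34, adjusted p = 2.48e-08), and 3.83 without array 3 (adjusted p = 1.19e-17). Klrk1 behaved alike at 0 h, with 9.70, 9.12 and 7.41 in TMem against 6.09, 5.52 and 5.82 in TN. Its difference was 2.93 (SE 0.30, adjusted p = 4.09e-09), and 3.60 without array 3. At 0 h, 4 of the 6 receptor genes were called, 2 higher and 2 lower in TMem, where 35.9% of all genes were called (18.4% higher, 17.5% lower).

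After stimulation Klrc1 stayed in the same order. It read 10.29, 10.43 and 10.21 in TMem alone at 18 h, 10.19, 10.13 and 10.18 in TMem mix at 18 h, 9.80, 9.83 and 9.92 in TMem alone at 96 h and 9.93, 9.94 and 9.79 in TMem mix at 96 h. All 15 TN arrays lay between 5.57 and 6.37, with group means of 5.77 to 6.13 that were only just above the near-background level. Klrc1 was thus 4.22 higher in TMem than in TN alone at 18 h (SE 0.34, 18.6-fold, adjusted p = 4.46e-11) and 4.08 higher at 96 h (SE 0.34, adjusted p = 2.52e-10). In the mixed cultures the differences were 4.03 at 18 h and 4.07 at 96 h, with 95% intervals of 3.34 to 4.72 and 3.38 to 4.77. Neither in TN nor in TMem did Klrc1 pass the test between mix and alone at either time. Klrc1 has near-identical paralogs in Klrc2 and Klrc3, whose transcripts could also bind its probes, and how far they did was not tested.

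Klrk1 differed from Klrc1 in the naive cells, where it moved with time and with culture. In TN it was near background at 18 h, with 5.20, 5.004 and 5.25 alone and 5.31, 5.34 and 5.35 in the mix. At 96 h it read 6.46, 7.02 and 6.68 in TN alone and 8.14, 8.26 and 8.38 in TN mix. The arrays of TN mix at 96 h were thus higher than all other TN arrays. They lay under every TMem array except array 3 at 0 h, which read 7.41. In TN alone it rose by 1.57 from 18 h to 96 h (SE 0.30, adjusted p = 1.41e-04), times that also differ in the Y-linked transcripts. TMem arrays other than array 3 at 0 h read between 9.12 and 10.06. In TMem alone from 0 h to 18 h Klrk1 rose by 0.85 (SE 0.30, adjusted p = 0.0251) and Klrc1 by 1.44 (SE 0.34, adjusted p = 0.00104), and both rested in part on array 3: without it the values were 0.18 for Klrk1, which was not called (adjusted p = 0.378), and 0.64 for Klrc1 (adjusted p = 9.49e-04). With only the 2 groups compared in the fit neither was called (adjusted p = 0.174 for Klrk1 and 0.0518 for Klrc1). The call of Klrk1 was also lost with quantile normalization (adjusted p = 0.0580) and without array 3 at 18 h (adjusted p = 0.0896). The excess of TMem was 4.44 at 18 h alone (SE 0.30, adjusted p = 9.85e-13) and 3.996 in the mix, but 3.14 at 96 h alone and 1.61 in the mix (95% interval 1.00 to 2.22, adjusted p = 2.94e-04).

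**Figure D1:**
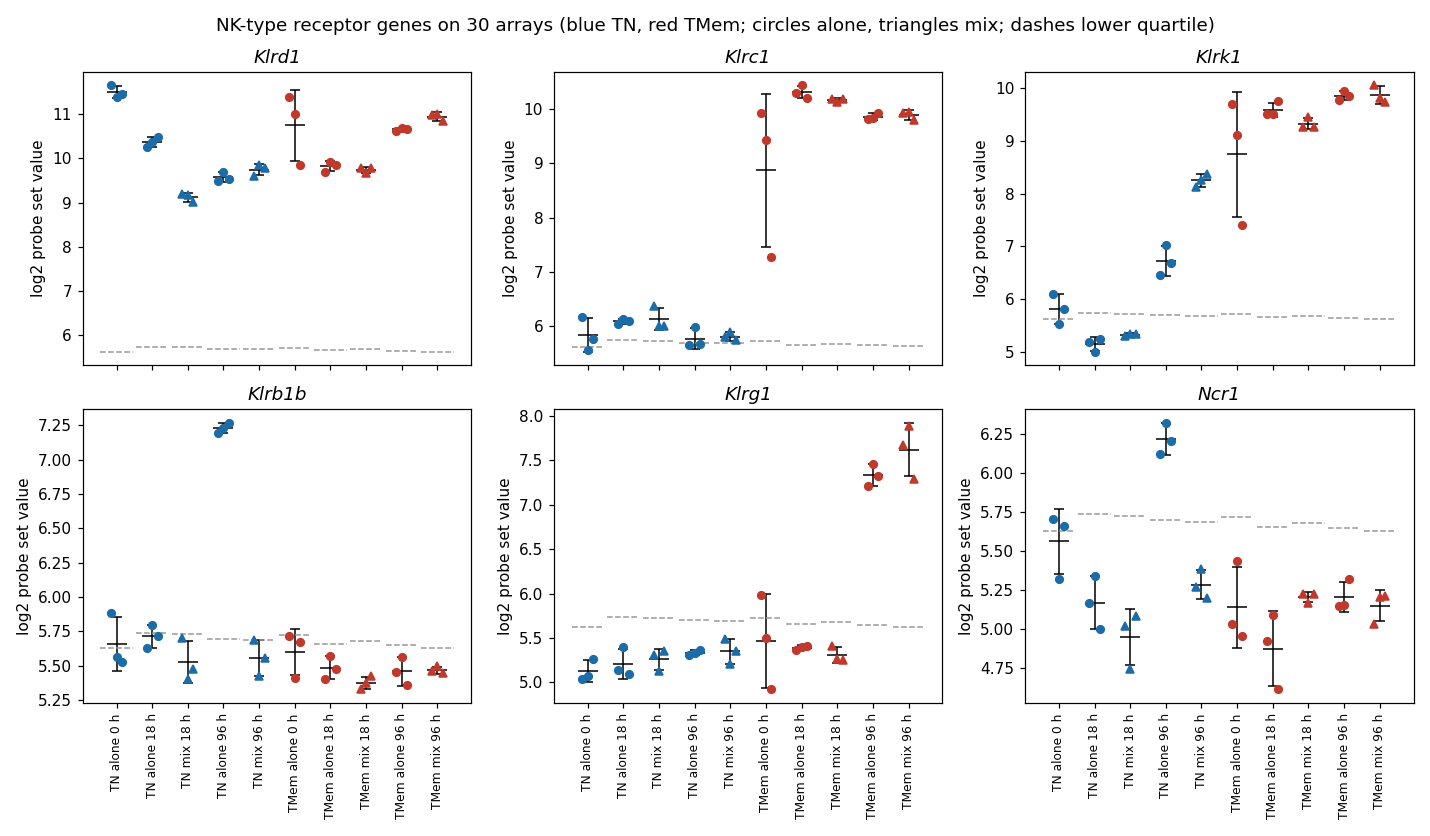
Log2 probe set values of the 6 receptor genes on all 30 arrays, 1 panel a gene, each panel with its own vertical scale. Points are arrays (blue TN, red TMem, circles alone, triangles mix), black bars the mean ± SD of 3 arrays and grey dashes the mean lower quartile of each group; Klrc1 is at 5.57 to 6.37 on all TN arrays, Klrb1b averages 7.23 in TN alone at 96 h and stays at 5.88 or less elsewhere, and Klrg1 exceeds 7 in both TMem groups at 96 h only.

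The pair is shown with the sequence around its gene starts because both genes were high in all TMem groups. The windows are from RefSeq (GRCm38.p6), cover 250 bases before to 50 bases after the gene start, and are written 5′ to 3′ on the strand of the gene. Klrc1 is at chr6:129678924-129679223 and Klrk1 at chr6:129623815-129624114, both on the minus strand. Capitals mark matches on either strand to the letters TGTGGT (RUNX) and TGANTCA (AP-1). Searches for TCACAC (T-box) and TTCNNNGAA (STAT) were made in the same way.
Klrc1: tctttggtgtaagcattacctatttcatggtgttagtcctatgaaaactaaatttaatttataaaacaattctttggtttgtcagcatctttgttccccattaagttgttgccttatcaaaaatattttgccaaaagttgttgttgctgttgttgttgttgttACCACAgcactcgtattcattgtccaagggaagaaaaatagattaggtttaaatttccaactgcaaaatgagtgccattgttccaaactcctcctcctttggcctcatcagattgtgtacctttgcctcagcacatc
Klrk1: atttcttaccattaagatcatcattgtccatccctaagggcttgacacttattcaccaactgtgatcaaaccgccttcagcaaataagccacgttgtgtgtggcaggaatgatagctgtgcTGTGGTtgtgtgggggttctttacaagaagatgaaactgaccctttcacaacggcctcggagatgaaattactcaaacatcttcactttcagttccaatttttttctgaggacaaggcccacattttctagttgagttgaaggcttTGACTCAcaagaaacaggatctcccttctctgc
A RUNX match stood at -87 in Klrc1 and at -129 in Klrk1, and an AP-1 match at +18 in Klrk1. Of 27025 windows of the same length, 16.9% held the RUNX letters and 7.93% the AP-1 letters, so that a match in a window is common. A match describes letters only and is no measured site.

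Klrd1, the partner chain of the Klrc products, was far above background in every group and was highest in resting naive cells. It read 11.65, 11.39 and 11.46 in TN alone at 0 h and 10.27, 10.37 and 10.48 in TN alone at 18 h. In TN alone at 96 h it read 9.49, 9.70 and 9.53. Each step lay below the one before without overlap. TN alone at 18 h also differed from 0 h and 96 h in the Y-linked transcripts, so that time and the source of the cells cannot be told apart. Klrd1 fell by 1.13 from 0 h to 18 h in TN alone (SE 0.20, adjusted p = 3.92e-05), where 2 of the 6 receptor genes, both lower, and 33.8% of all genes were called (17.1% higher, 16.7% lower). It fell by a further 0.80 to 96 h (SE 0.20, adjusted p = 0.00286), where 4 of the 6, 3 higher and 1 lower, and 24.4% of all genes were called (11.3% higher, 13.1% lower).

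In TMem alone Klrd1 followed another course. It read 11.38, 11.01 and 9.85 at 0 h, 9.69, 9.92 and 9.85 at 18 h and 10.62, 10.67 and 10.67 at 96 h. The 18 h arrays overlapped with the 0 h group only through array 3, and all 96 h arrays lay above all 18 h arrays. It fell by 0.93 from 0 h to 18 h (SE 0.20, adjusted p = 4.14e-04) and by 1.37 without array 3, and rose by 0.84 from 18 h to 96 h (SE 0.20, adjusted p = 0.00192). The first of these steps had 3 of the 6 receptor genes called, 2 higher and 1 lower, and 35.3% of all genes (18% higher, 17.3% lower). The second had 2 of the 6, both higher, and 24.4% of all genes (14.6% higher, 9.87% lower).

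The order of memory and naive cells in Klrd1 differed between times and, at 18 h, between alone and mix. A change of this difference over time was not tested. TN alone at 18 h also differs from 0 h and 96 h in the Y-linked transcripts. TMem alone was below TN alone at 0 h, by a difference of -0.76 (SE 0.20, adjusted p = 0.00316), which was -0.31 without array 3 (adjusted p = 0.0280) and was not called when only the 6 arrays of the 2 groups were fitted (adjusted p = 0.138). At 18 h it was below by -0.55 (SE 0.20, adjusted p = 0.0360), a call that was lost when any of 5 of the 6 arrays was left out, all except array 1 of TN alone. At 96 h it was above, by 1.08 alone (SE 0.20, adjusted p = 1.27e-04) and by 1.20 in the mix (SE 0.20, adjusted p = 8.29e-05), without overlap in either. In the mix at 18 h it was above by 0.62 (SE 0.20, adjusted p = 0.0258), which missed the threshold with each array centred on its median (adjusted p = 0.0674) and without array 1 or 3 of TMem mix or array 2 or 3 of TN mix.

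Klrg1 was above background in memory cells at 96 h and in no other group. It read 7.21, 7.46 and 7.33 in TMem alone and 7.68, 7.89 and 7.30 in TMem mix at 96 h. The other 8 groups were near background, and their arrays lay between 4.92 and 5.98. The rise in TMem alone from 18 h to 96 h was 1.94 (SE 0.16, adjusted p = 2.35e-10), a 3.84-fold change from a level near background. Against TN at 96 h, TMem was 2.00 higher alone (SE 0.16, adjusted p = 2.10e-10) and 2.27 higher in the mix (SE 0.16, adjusted p = 5.32e-11). TN showed no level above background at 96 h, with 5.30, 5.34 and 5.36 alone and 5.49, 5.21 and 5.35 in the mix. In TMem alone at 0 h the arrays read 5.98, 5.50 and 4.92. The difference from TN was 0.34 and not called with all arrays (adjusted p = 0.113), and 0.61 and called without array 3 (adjusted p = 9.37e-04).

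Klrb1b and Ncr1 were both highest in naive cells stimulated alone for 96 h. This was the only group with Ncr1 above background, and Klrb1b was above it elsewhere only in TN alone at 0 h, at a mean of 5.66. Klrb1b read 7.19, 7.23 and 7.27 there, and every other array of the series lay between 5.33 and 5.88. Klrb1b rose by 1.52 in TN alone from 18 h to 96 h (SE 0.10, adjusted p = 7.69e-13), and TMem alone at 96 h was lower by -1.77 (SE 0.10, adjusted p = 1.16e-13). Ncr1 read 6.12, 6.32 and 6.21 in TN alone at 96 h, and every other array lay between 4.61 and 5.70. Its rise from 18 h was 1.05 (SE 0.13, adjusted p = 2.24e-07), and TMem alone at 96 h was lower by -1.01 (SE 0.13, adjusted p = 5.45e-07). TN alone at 18 h and at 96 h also differ in the Y-linked transcripts, from which both rises cannot be told apart. With Klrb1b and Ncr1, all 6 receptor genes were called between TMem alone and TN alone at 96 h, 4 higher and 2 lower. Of all genes 22.2% were called there (14.1% higher, 8.02% lower). In the mix at 96 h 4 of the 6 were called, all higher in TMem, where 10.6% of all genes were called (6.68% higher, 3.94% lower), and neither Klrb1b nor Ncr1 was among them. At 18 h 3 of the 6 were called alone, 2 higher and 1 lower, against 28.9% of all genes (15.4% higher, 13.5% lower). In the mix at 18 h 3 were called, all higher, against 20.4% of all genes (11.8% higher, 8.64% lower).

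Outside that group the calls of Ncr1 were small and between levels near background. Ncr1 differed by -0.42 between TMem and TN at 0 h (adjusted p = 0.0102), with groups that overlapped, and the call was lost without array 3 of TMem (adjusted p = 0.0699), array 1 of TMem (0.0524) or array 1 of TN (0.0602), and with only the groups compared (0.115). In TN alone it fell by 0.39 from 0 h to 18 h (adjusted p = 0.0169), again with overlap, and the call was lost without array 1 or 3 at 0 h or array 3 at 18 h, and with only the groups compared (adjusted p = 0.0667).

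**Figure D2:**
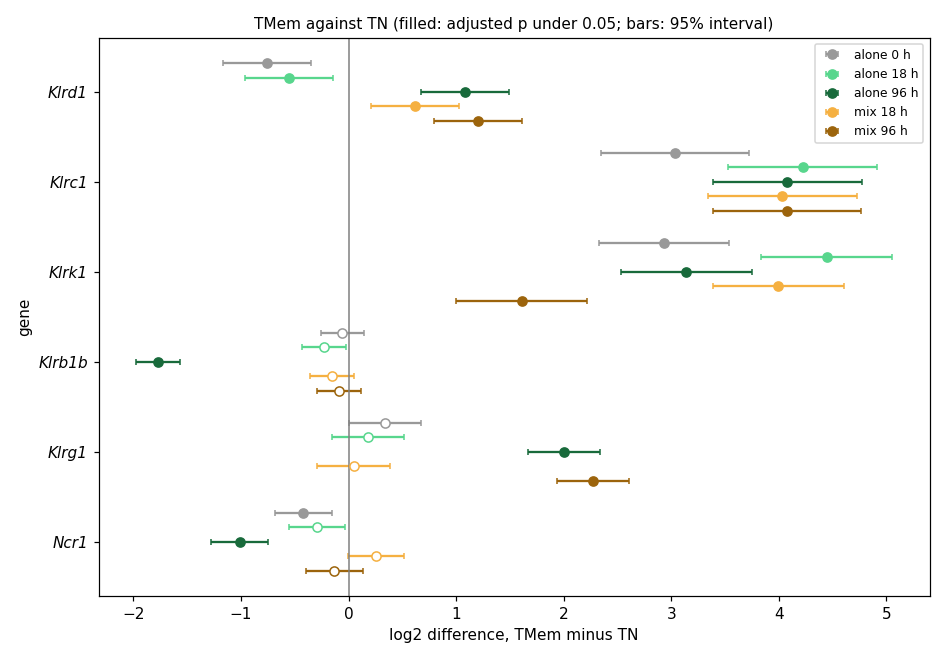
Log2 difference TMem minus TN for each receptor gene in 5 comparisons (alone at 0, 18 and 96 h, mix at 18 and 96 h), with 95% intervals of the fit; filled points have an adjusted p under 0.05. Klrc1 and Klrk1 lie right of 0 in all 5, Klrd1 changes side between 18 h and 96 h alone, and Klrb1b is displaced in 1 comparison, alone at 96 h (-1.77).

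Naive cells from mixed and separate cultures differed in 1 receptor gene at 18 h and in 3 others at 96 h. At 18 h Klrd1 read 9.18, 9.17 and 9.01 in TN mix against 10.27, 10.37 and 10.48 in TN alone. The groups were more than 1 log2 unit apart on every array. Klrd1 fell by 1.25 (SE 0.20, 2.38-fold, adjusted p = 4.93e-05), and the adjusted p stayed between 2.78e-10 and 6.59e-04 under the alternatives. It was the only call among the 6, where 14.4% of all genes were called (6.3% higher, 8.15% lower). The others differed by -0.22 (Ncr1) to 0.18 (Klrk1), and 4 of these 5 were near background in both groups.

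At 96 h Klrd1 no longer passed the test, and 3 other receptor genes did, 1 higher and 2 lower in TN mix, where 10.6% of all genes were called (7% higher, 3.62% lower). Klrk1, at 8.14, 8.26 and 8.38 in TN mix and 6.46, 7.02 and 6.68 in TN alone, was 1.54 higher in the mix (SE 0.30, 2.90-fold, adjusted p = 5.84e-04). Klrb1b, at 5.69, 5.43 and 5.56 in the mix and 7.19, 7.23 and 7.27 alone, was lower by -1.67 (SE 0.10, adjusted p = 2.74e-12). Ncr1, at 5.27, 5.38 and 5.20 in the mix and 6.12, 6.32 and 6.21 alone, was lower by -0.93 (SE 0.13, adjusted p = 7.40e-06). Klrb1b and Ncr1 were near background in the mix, so that their changes may be understated. The 3 calls held under each alternative tried. TN mix and TN alone at 96 h also differ in the Y-linked transcripts, from which these differences cannot be told apart. Klrd1 differed by 0.17 (95% interval -0.24 to 0.58), Klrc1 by 0.04 and Klrg1 by 0.02. Klrc1, which was higher on each of the 15 TMem arrays than on any TN array, read 5.80, 5.89 and 5.74 in TN mix and 5.66, 5.99 and 5.67 in TN alone, a difference with a 95% interval of -0.65 to 0.73.

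In TMem no receptor gene was called between mix and alone with limma. At 18 h 0 of 6 passed, where 0.0301% of all genes were called (0% higher, 0.0301% lower), and 1 of 6 had an unadjusted p under 0.05, Ncr1 with a difference of 0.33 near background. Klrc1 and Klrk1 differed by -0.14 and -0.26. The arrays of mix and alone did not overlap for Klrc1, Klrk1 and Ncr1, and overlapped for the other genes. At 96 h 0 of 6 passed, where 1.12% of all genes were called (0.968% higher, 0.15% lower), and 0 of 6 had an unadjusted p under 0.05. Klrd1 read 10.99, 11.01 and 10.84 in TMem mix and 10.62, 10.67 and 10.67 in TMem alone at 96 h, which did not overlap, with a difference of 0.29 (95% interval -0.12 to 0.70, adjusted p = 0.945). Under the alternatives its adjusted p was 0.0697 at the lowest, and no receptor gene was called. Klrg1 differed by 0.29 too (95% interval -0.05 to 0.62, adjusted p = 0.844), and Klrc1, Klrk1, Klrb1b and Ncr1 by -0.06 to 0.03.

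The difference between the effect of mixing in TN and that in TMem was tested itself. At 18 h it was -1.17 for Klrd1 (SE 0.28, adjusted p = 0.0104), 1 call among the 6, where 5.17% of all genes were called (1.44% higher, 3.73% lower). At 96 h it was 1.53 for Klrk1 (SE 0.42, adjusted p = 0.0355), -1.68 for Klrb1b (SE 0.14, adjusted p = 7.49e-09) and -0.88 for Ncr1 (SE 0.18, adjusted p = 0.00349), 3 calls where 3.54% of all genes were called (1.92% higher, 1.62% lower). The call of Klrk1 did not hold when any of 9 of the 12 arrays was left out (all except array 2 of TN alone, array 1 of TN mix and array 1 of TMem mix), with array centring (adjusted p = 0.0546) or with a trended robust prior (adjusted p = 0.0566). Between 18 h and 96 h the effect of mixing in TN differed by 1.42 for Klrd1 (SE 0.28, adjusted p = 8.09e-04), 1.36 for Klrk1 (SE 0.42, adjusted p = 0.0308), -1.49 for Klrb1b (SE 0.14, adjusted p = 2.38e-08) and -0.72 for Ncr1 (SE 0.18, adjusted p = 0.00822). These were 4 calls among the 6, where 12.4% of all genes were called (8.16% higher, 4.26% lower). That of Klrk1 was lost with array centring (1.22, adjusted p = 0.0573) and without any of 7 of the 12 arrays, which were arrays 1 and 3 of TN alone at 18 h and at 96 h, arrays 1 and 2 of TN mix at 18 h and array 3 of TN mix at 96 h. All of these differences except those at 18 h include TN mix against TN alone at 96 h, where the source of the cells and mixing cannot be told apart.

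**Figure D3:**
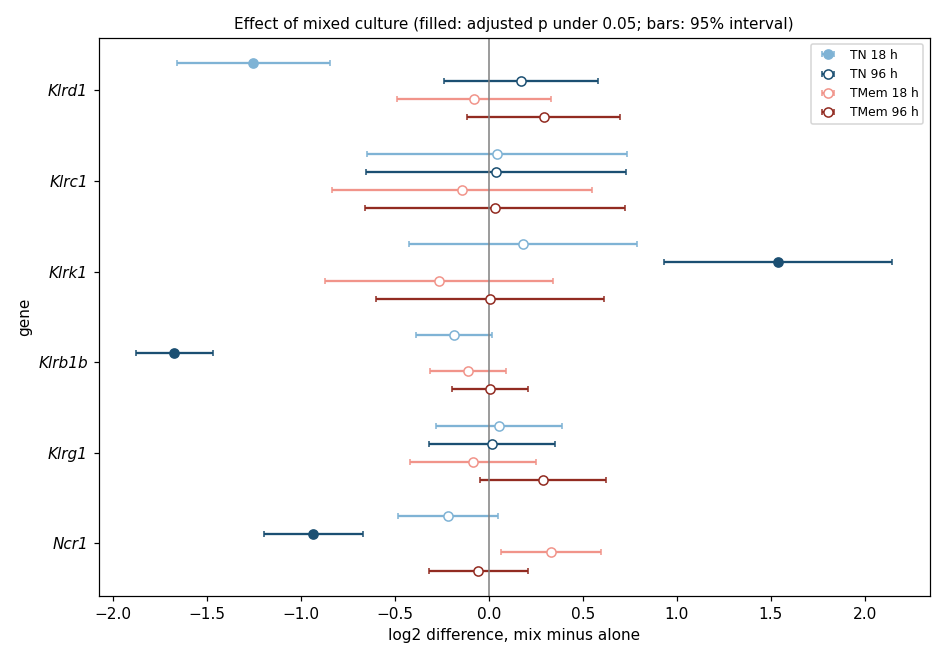
Log2 difference mix minus alone for each receptor gene in TN and TMem at 18 h and 96 h, with 95% intervals of the fit; filled points have an adjusted p under 0.05. The 4 filled points are all of TN: Klrd1 at 18 h (-1.25), and Klrk1 (1.54), Klrb1b (-1.67) and Ncr1 (-0.93) at 96 h.

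In TN at 96 h, some transcripts of other cell types were lower in the mix, as Klrb1b and Ncr1 were. Between TN alone and TN mix at 96 h, Lyz2 of macrophages read 8.26 ± 0.10 and 5.47 ± 0.23 (SD, n = 3), Cpa3 of mast cells 8.58 ± 0.08 and 6.85 ± 0.54, Mcpt8 of basophils 7.54 ± 0.39 and 6.23 ± 0.19, and the class II gene H2-Aa 9.46 ± 0.10 and 6.62 ± 0.11. The regulatory T cell gene Foxp3 read 8.79 and 7.30, and Fcer1g, the adaptor of Ncr1, 8.28 and 6.92. Of all genes 10.6% were called in this comparison and 3.62% fell. By list, 4 of 6 mast cell and basophil markers, 4 of 9 B cell markers, 1 of 10 macrophage, monocyte and dendritic cell markers, 2 of 6 CD4 and regulatory T cell markers, 1 of 3 gamma delta T cell markers and 1 of 4 erythroid and platelet markers fell in the mix, and none of these rose. Of 6 neutrophil markers 2 rose and 1 fell.

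The summed linear level of the mast cell and basophil markers was 938 to 1073 on the arrays of TN alone at 96 h and 436 to 513 in TN mix. That of the B cell markers, a list that includes the class II gene H2-Aa, was 3053 to 3334 and 1252 to 1393. Ms4a1, Cd79a and Cr2 of this list were near background in both. That of the macrophage markers was 1764 to 1801 and 1326 to 1364, with Adgre1 near background in both. Of the mast cell and basophil markers, Fcer1a and Ms4a2 were near background in both. Of the 10 NK cell markers measured, 3 fell and none rose: these were Klrb1b and Ncr1 themselves and Fcer1g. Klrb1c, Klrb1a, Klra8, Klre1 and Klri2 were near background in both groups, and the summed level of the 10 was 856 to 885 in TN alone and 489 to 559 in TN mix. In TMem alone at 0 h the summed level of the mast cell and basophil markers was 836 to 1682. Klrb1b and Ncr1 were near background in that group, with means of 5.60 and 5.14. The part of other cells in the levels of Klrb1b and Ncr1 was not tested.

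The same 2 genes are shown by sequence because they were highest in the same group. The windows, marked as for Klrc1 and Klrk1, lie at chr6:128826266-128826565 on the minus strand (Klrb1b) and chr7:4337465-4337764 on the plus strand (Ncr1).
Klrb1b: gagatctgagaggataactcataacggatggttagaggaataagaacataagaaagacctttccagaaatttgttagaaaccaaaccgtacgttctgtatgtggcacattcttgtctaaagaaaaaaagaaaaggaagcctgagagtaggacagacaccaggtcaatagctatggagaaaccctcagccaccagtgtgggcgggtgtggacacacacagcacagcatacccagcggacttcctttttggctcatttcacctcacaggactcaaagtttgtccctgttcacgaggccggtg
Ncr1: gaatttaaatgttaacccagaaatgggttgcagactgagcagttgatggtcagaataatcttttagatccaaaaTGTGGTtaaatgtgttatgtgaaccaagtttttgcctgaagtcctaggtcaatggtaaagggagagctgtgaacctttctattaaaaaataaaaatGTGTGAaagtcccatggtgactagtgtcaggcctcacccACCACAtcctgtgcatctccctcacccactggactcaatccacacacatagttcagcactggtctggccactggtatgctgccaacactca
Ncr1 held RUNX matches at -176 and -41 and a T-box match, GTGTGA on this strand, at -80, a motif in 14.4% of all windows. Klrb1b held none of the 4 motifs, of which STAT was in 8.47% of all windows, in these letters and this window. Each of these genes had 2 windows, of which only the first listed was searched and shown.

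**Figure D4:**
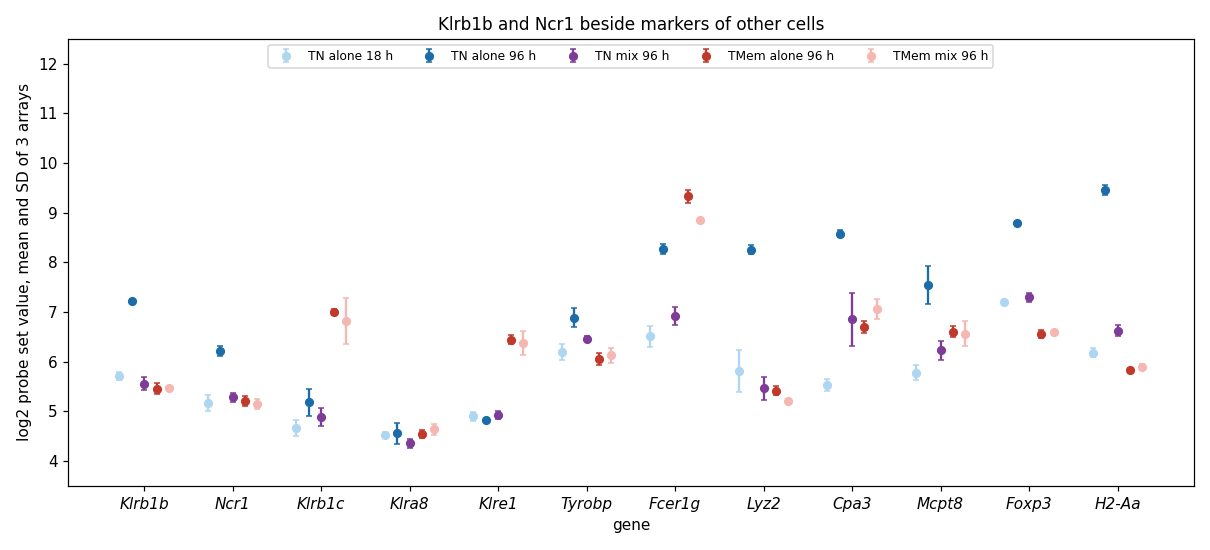
Mean log2 probe set values (points) with SD (bars, n = 3 arrays) of Klrb1b, Ncr1, other NK genes and markers of other cells in 5 groups. Among these 5 groups, Lyz2, Cpa3, Mcpt8, Foxp3 and H2-Aa are highest in TN alone at 96 h as Klrb1b and Ncr1 are. Klrb1c is highest in TMem at 96 h, and Fcer1g is high in both TN alone and TMem at 96 h. Groups at 0 h are not shown.

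Each gene ordered the 10 groups in its own way. For Klrd1, TN alone at 0 h (11.50 ± 0.13, SD) stood above all others and TN mix at 18 h (9.12 ± 0.10) below, while TMem alone at 18 h, TN mix at 96 h, TMem mix at 18 h and TN alone at 96 h, between 9.82 and 9.57, overlapped from each to the next. For Klrc1 the 5 TMem groups ranked above the 5 TN groups with a gap of 2.74, and the 5 TN groups overlapped from each to the next. For Klrk1, TN mix at 96 h (8.26 ± 0.12) ranked directly under the 5 TMem groups and 1.54 above TN alone at 96 h. Klrb1b, Klrg1 and Ncr1 each had 1 or 2 groups apart and neighbours with overlapping ranges below them. The group means of Klrk1 spanned 4.72, of Klrc1 4.54, of Klrg1 2.50, of Klrd1 2.38, of Klrb1b 1.85 and of Ncr1 1.34.

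Over the 10 group means, Klrc1 and Klrk1 had a Pearson r of 0.87, with -0.74 within the 5 TN groups and 0.70 within the 5 TMem groups. Klrb1b and Ncr1 had an r of 0.89, with 0.91 within the TN groups and -0.23 within the TMem groups. By rank (Spearman) the correlation was 0.68 for the first pair and 0.35 for the second. Klrb1b was near background in 8 of the 10 groups and Ncr1 in 9. Their r, also with the genes named below, thus rests mainly on TN alone at 96 h. Klrd1 had an r of 0.15 with Klrc1 and 0.13 with Klrk1. These values are descriptions over groups that share arrays and time points. The genes with the most similar pattern, ranked among 4452 genes whose group means spanned at least 1, were for Klrc1 its neighbour Klrc2 (r = 0.99), whose transcript is near-identical, and Yes1 (0.99). They were Osbpl3, Mt2 and Mt1 for Klrk1 (0.98 each), and Pea15a (0.93) and Snx14 (0.92) for Klrd1. Klrg1 was followed by Khdc1a, Gpr141, Ltb4r1, Bmerb1 and Gzmf (0.99 or more), Klrb1b by Lyz2 (0.99), Clec4e and Cybb (0.98 each), and Ncr1 by Rbpms (0.95), Tgfb3 (0.94) and Lyz2 (0.93).

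Other receptors of the NK gene complex differed between TMem and TN in both directions. Of 21 measured, 7 rose and 5 fell in TMem at 0 h, where 18.4% of all genes rose and 17.5% fell, with a median difference of -0.05 over the list and 0.02 over all genes. At 96 h alone 8 rose and 1 fell, where 14.1% of all genes rose and 8.02% fell, with medians of 0.15 and 0.01. Klra6, an inhibitory Ly49 receptor, had means of 4.63 in TN and 7.18 in TMem at 0 h, a difference of 2.55 (SE 0.28, adjusted p = 1.50e-08), and Clec2d and Clec12a were lower in TMem by -1.43 and -1.68. Klra5 was 3.79 higher in TMem alone at 96 h (SE 0.28), and Klrc2 and Klrc3 were 1.57 and 2.12 higher. Klra and Klrc genes are close paralogs, so that their probes may share transcripts. Klrb1c, the gene of the NK1.1 antigen, took the course of Klrg1: it was near background in every group except TMem at 96 h, with 7.001 alone and 6.82 in the mix, and rose by 2.52 in TMem alone from 18 h (SE 0.18, adjusted p = 1.20e-11). Klri2 was above background in TMem at 18 h only, with 6.03 alone and 6.15 in the mix. Between mix and alone in TN 1 of the 21 was called at 18 h and 3 at 96 h, where 14.4% and 10.6% of all genes were called: Cd69, an early activation gene, rose by 0.60 at 18 h and 0.70 at 96 h, Clec2i rose by 0.49 and Clec12a fell by 1.21 at 96 h, and in TMem limma called 0 of 21 at either time, where 0.0301% and 1.12% of all genes were called.

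**Figure D5:**
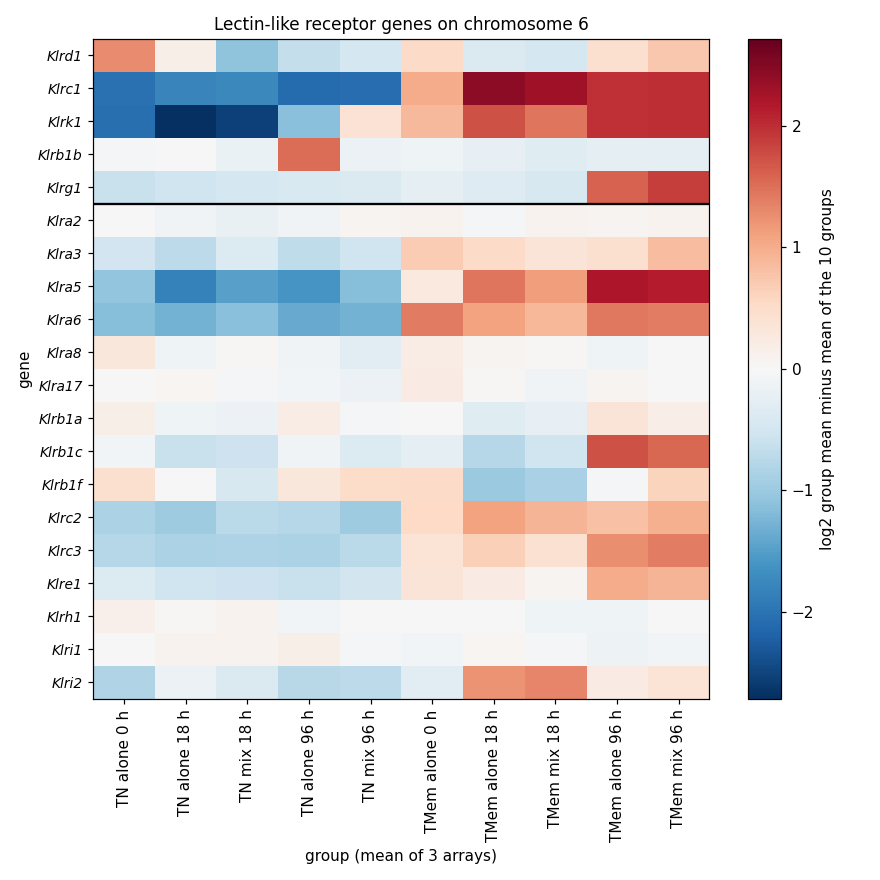
Group means of lectin-like receptor genes of chromosome 6, each as the log2 difference from that gene's mean over the 10 groups (red higher, blue lower); the 5 upper rows are the receptor genes described here, the others come from the list of the NK gene complex. Klra5, Klra6, Klrc2 and Klrc3 are higher in TMem columns as Klrc1 is, and Klrb1c is high in the 2 TMem columns at 96 h as Klrg1 is. Klre1 was near background in TMem mix at 18 h as in all TN groups. Klra3 was above background in TN alone at 0 h and TN mix at 18 h.

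The adaptors and signalling genes of the receptors did not move with them as one. Of 19 measured, 9 rose and 4 fell in TMem against TN at 0 h, where 18.4% of all genes rose and 17.5% fell, with a median difference of 0.28 over the list and 0.02 over all genes. Hcst, the adaptor of Klrk1, ran opposite to it: its means were 9.27 in TN and 7.87 in TMem at 0 h, a difference of -1.40 (SE 0.13, adjusted p = 9.20e-10), and it was lower by -0.90 in TMem alone at 18 h and by -0.38 at 96 h. In TN at 96 h, where Klrk1 was higher in the mix, Hcst was lower in the mix by -0.41 (adjusted p = 0.0393). Tyrobp, the other adaptor of Klrk1, differed there by -0.42 and was not called (adjusted p = 0.114). Fcer1g rose in both cell types alone from 18 h to 96 h, by 1.77 in TN and 2.88 in TMem, and Inpp5d, a phosphatase recruited by inhibitory receptors, was 1.32 higher in TMem at 0 h. In TN mix at 18 h 1 of the 19 rose and 3 fell, among them Plcg1 (-0.83), Inpp5d (-0.60) and Zap70 (-0.38), and at 96 h 1 rose (Sh2d1a, 0.71) and 2 fell, where 14.4% and 10.6% of all genes were called.

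Of 13 listed ligands 6 were measured, of which 2 rose and 1 fell in TMem at 0 h, 1 fell in TN mix at 18 h and 2 at 96 h, where 35.9%, 14.4% and 10.6% of all genes were called. Clec2d, the ligand of Klrb1b, had means of 11.61 in TN and 10.18 in TMem at 0 h. Cdh1, the cadherin bound by Klrg1, was 0.96 higher in TMem at 0 h and fell in TN mix at 96 h (-0.86, adjusted p = 7.80e-05). H60b, a ligand of Klrk1, was 0.40 higher in TMem at 0 h (adjusted p = 0.0366) and fell in TN mix at 18 h (-0.74) and 96 h (-0.76), with 5.57 and 5.18 in the mix near background.

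Among other receptors that T cells share with NK cells, 6 of 12 rose and 4 fell in TMem against TN at 0 h, where 18.4% of all genes rose and 17.5% fell. The median difference was 0.27 over the list and 0.02 over all genes, with Slamf7 2.79 and Tigit 2.49 higher and Slamf6 lower by -1.45. In TN mix at 18 h Slamf7 rose by 0.63 and Cd96 fell by 0.41, and at 96 h 3 rose and 4 fell, among them Pvr (0.76), Slamf6 (0.42) and Cd244a (-0.90), where 14.4% and 10.6% of all genes were called. In TMem mix at 96 h no gene of the 6 was called, and 1.12% of all genes were (0.968% higher). Of the 12 listed here 3 rose, Slamf6 by 0.91, Cd226 by 0.76 and Lag3 by 0.48. The list of transcription factors of effector and NK programmes also named Tcf7, Lef1, Id3, Bach2, Klf2 and Foxo1, better known from naive and memory cells. Its counts therefore do not stand for effector factors alone. Of its 16 measured genes, 8 rose and 4 fell in TMem at 0 h, with a median difference of 0.36 over the list. Eomes and Tbx21, T-box factors of effector and NK cells, were 3.78 and 2.81 higher. In TN mix at 18 h, where Klrd1 fell, Eomes rose by 1.27 and Bhlhe40 by 1.05, Lef1 fell by 0.93, and in all 3 rose and 6 fell. At 96 h 5 rose, among them Bhlhe40 (0.90) and Nfil3 (0.78), and 3 fell, among them Ikzf2 (-1.02), beside the same 14.4% and 10.6% of all genes.

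For the following lists, 35.9% of all genes were called in TMem against TN at 0 h (18.4% rose, 17.5% fell), 14.4% in TN mix at 18 h (6.3% rose, 8.15% fell) and 10.6% at 96 h (7% rose, 3.62% fell). Of 14 killing molecules, 11 rose and 2 fell in TMem at 0 h, with Gzmb 5.85 higher, and in TN mix 3 rose and 2 fell at 18 h (Gzmc 1.35, Gzmb 1.00) and 6 rose and 3 fell at 96 h (Fasl 1.38, Gzmk 1.25). The list of the IL-2 and IL-15 receptor pathway also named receptor genes of other cytokines (Il12rb1, Il12rb2, Il18r1, Il18rap and Il21r). Of its 18 measured genes, 11 rose and 2 fell in TMem at 0 h, and 5 rose and 3 fell in TN mix at 18 h (Il2 1.37). At 96 h 1 rose (Il12rb2, 0.72, an IL-12 receptor gene) and 2 fell. Markers of other cells also differed between TMem and TN at 0 h, where Klrc1 and Klrk1 did: 4 of 6 mast cell and basophil markers and 3 of 4 erythroid and platelet markers rose. The summed level of the former was 1004, 836 and 1682 on the 3 TMem arrays, highest on array 3, and 371 to 426 in TN. Of 10 NK cell markers measured, 4 rose and 1 fell in TMem at 0 h. Their summed level was 528 to 700 in TMem and 478 to 639 in TN, with Ncr1, Klrb1c, Klrb1a, Klra8 and Klri2 near background in both. The part of these cells in the result was not tested.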

How the data were processed

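RNA of sorted cells was measured on Affymetrix arrays after whole-transcript amplification, per the labels' protocols. The authors deposited log2 probe set values made with RMA and Partek, per the submitters' processing notes, with versions not given in the sources used here. Raw files and detection calls were not used here. RMA commonly normalizes between arrays, which removes global shifts. Of 35556 rows, 21789 named 1 gene, 1621 several and 12146 were not listed. Of 999 genes with more than 1 row, the row with the highest mean was used, and no filter was applied. Array medians were 6.76 to 6.94.

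limma 3.58.1 in R 4.3.3 fitted 1 mean per group to all 30 arrays (20 residual degrees of freedom), with 13 comparisons of 2 groups and 3 differences between effects, 2-sided, with Benjamini-Hochberg adjustment. The number of arrays limits precision. The 6 genes and the lists (9 of markers, 7 of genes) were chosen with earlier results of these data known. Up to 3 genes of a list with the smallest adjusted p for each effect of mixing and for memory against naive cells at 0 h, 5 genes per receptor by correlation, and sex-linked genes were named; other genes of the NK complex and adaptors were named after their values were seen. Tested on simulated data shaped on the mixing effect in TN at 96 h (19938 genes), 67.2% of 67 genes changed by 0.5, 98.5% of 67 by 1 and 100% of 66 by 2 were recovered. Of all calls 7.33% were false. Same-numbered arrays had correlated deviations (all 3 over 0.1) in 1 of 13 pairs of groups, TN mix and TN alone at 96 h (0.14 to 0.49), and values down to -0.34 elsewhere; the main fit had no block. Alternatives were another normalization, centring, prior, filter, row rule, array set and block, and leaving out each array.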

Additional observations from a re-analysis of the deposited data

Results flagged for a closer look

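The effect of mixing differed between groups in 8 tests of that difference (limma, adjusted over all genes). Between TN and TMem it differed at 18 h for Klrd1 (-1.17), and at 96 h for Klrk1 (1.53), Klrb1b (-1.68) and Ncr1 (-0.88). Between 96 h and 18 h in TN it differed for Klrd1 (1.42), Klrk1 (1.36), Klrb1b (-1.49) and Ncr1 (-0.72). Both tests of Klrk1 are the least firm of these, with adjusted p of 0.0355 and 0.0308. All of these tests except that of Klrd1 between TN and TMem at 18 h include TN mix against TN alone at 96 h. In that comparison the source of the cells and mixing cannot be told apart.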

How the results depend on the processing

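Of 43 calls of receptor genes in the 16 comparisons, 34 held under every alternative tried, and no call changed direction. Over the 9 settings other than leaving out each array, 801 of 828 values stayed on their side of the threshold, 10 calls were lost and 17 gained. Leaving out single arrays kept 645 of 684, lost 33 and gained 6. The alternatives without the 0 h arrays and without array 3 of TMem alone at 0 h were chosen after seeing the data.

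With only the groups compared in the fit, the genes called were 36 (TMem mix against alone, 18 h) in place of 6, 435 (96 h) in place of 223, 4091 (TMem against TN, 0 h) in place of 7151, 6699 (alone, 96 h) in place of 4420, and for the difference of mixing effects 1961 (18 h) in place of 1031 and 1185 (96 h) in place of 705. Receptor genes called were then 2 in place of 4 (TMem against TN, 0 h), 1 in place of 3 (TMem alone, 18 h against 0 h), 5 in place of 2 (96 h against 18 h), and 2 in place of 1 (difference of mixing effects, 18 h). Without the 0 h arrays the genes called were 3208 in place of 2117 (TN mix against alone, 96 h), 41 and 507 (TMem mix against alone), 2089 and 1422 (differences of mixing effects), and 3872 in place of 2475 (mixing effect in TN, 96 h against 18 h). Receptor genes called were then 5 in place of 3 (TMem against TN alone, 18 h), 4 (TMem alone, 96 h against 18 h) and 2 (difference of mixing effects, 18 h). TMem mix against alone at 18 h had 10 genes with arrays centred and 18 without array 3.

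Leaving out 1 array gave 1897 to 2496 genes for TN mix against alone at 18 h (fewest without array 2 of TN alone), 1 to 6 and 105 to 170 for TMem mix against alone, 1 to 2 receptor genes for TN alone at 18 h against 0 h, and 1 to 2 for the difference of mixing effects at 18 h. Klrc1 in TMem alone at 96 h against 18 h (-0.46) was called with only its groups (adjusted p = 7.23e-04), without the 0 h arrays (5.92e-04) or without array 3 (0.00908). Other causes were not tested; leaving out arrays means fewer samples.

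The replicate block (the number 1 to 3 of the labels) changed no call of a receptor gene and gave, for example, 2769 genes in TN mix against alone at 18 h and 2014 at 96 h. Centring moved the share of higher among called genes by over 10 points in 10 of 16 comparisons, for TN mix against alone from 43.6% to 60.1% at 18 h and from 65.9% to 49.3% at 96 h. Its shift of the median of all genes exceeded 0.1 in 4 of 16 comparisons, at most -0.13, and that of quantile normalization in 1 (-0.12, TN alone, 18 h against 0 h). A filter on low values left 16716 genes and all 6 receptor genes. Levels near background limit Klrb1b, Klrg1 and Ncr1.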
